A study of Homo sapiens with 12 samples.

Results

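The genes described here are 32 human genes of cholesterol handling, out of 19974 protein-coding genes on chromosomes 1 to 22 and X. They were chosen by name: 20 encode enzymes of cholesterol synthesis, 4 regulate that synthesis, 6 serve uptake, transport or storage of cholesterol, and 2 are efflux pumps. A PPARγ binding peak was counted for a gene when its summit lay within 50 kb of the gene's span in the hg38 build, and all 32 genes were found in the annotation. The peaks came from chromatin immunoprecipitation sequencing (ChIP-seq), in which DNA bound by a protein is pulled down and sequenced.

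PPARγ is a nuclear receptor that pairs with the receptor RXR on DNA and switches on genes of fat storage and fatty acid use when a lipid ligand binds it. Cells make cholesterol from acetyl-CoA through mevalonate, squalene and lanosterol, and the transcription factor SREBP2 turns these genes on when sterol in the membrane is low. When sterol is abundant, the oxysterol receptors LXRα and LXRβ, which also pair with RXR, turn on the efflux pumps. In macrophages and fat cells PPARγ is known to raise cholesterol efflux genes, partly by inducing LXRα.

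The cells were MCF10A-NeuT, a human mammary epithelial line transformed by the NeuT oncogene and grown in medium with fetal bovine serum. They carried either the KQ mutant of PPARγ (K154/155Q, with glutamine at lysines 154 and 155) or wild-type (WT) PPARγ, each stably expressed from the retroviral vector pMSCV-IRES-GFP. Each group had 2 ChIP libraries, and the authors deposited a peak list for each of these 4 libraries and a list from the pooled libraries of each group. ChIP from empty-vector cells and the input libraries, which complete the 12 libraries of the series, were not analysed here. The antibody field of the labels gives PPARγ and the design text gives Flag, so it is unknown whether receptor from the cells' own gene was pulled down as well. The design text calls the mutant acetylation deficient. The labels do not say whether the libraries came from separate cultures, or whether a line was a clone or a pool, so the p-values measure only the spread between these libraries. Peak lists hold no expression values, so the cell type could not be checked against its markers.

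Tag numbers at the called peaks, not sequencing depth, were read from the lists. The tags at each summit and the caller's background could be recovered from the authors' fold enrichment and p-value for 100% of peaks. The KQ libraries had 1263 and 1035 peaks with medians of 17 and 16 tags at the summit, and the WT libraries had 18143 and 17859 peaks with medians of 15 and 8 tags. The median background under a peak was 2.01 and 1.77 tags in the KQ libraries and 1.41 and 0.448 tags in the WT libraries. Beside the fold, the significance of a peak is given as the authors' −log10 q, whose lowest value was between 1.30 and 1.41 in the 6 lists. The same fold generally rested on more tags in a KQ list than in a WT list, and folds are set side by side between lists here only as descriptions. A pooled peak is called reproducible when it overlapped a peak of both libraries of its group by at least 1 bp.

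The cholesterol genes had far fewer KQ than WT peaks, as did protein-coding genes at large. KQ library 1 had 1 peak in the windows of the 32 genes, near the methylsterol oxidase gene MSMO1, and KQ library 2 had 1, near the efflux pump gene ABCA1. WT libraries 1 and 2 had 67 and 62 peaks in the same windows. The groups did not overlap, and the means were 1 ± 0 peaks in KQ and 64.5 ± 3.54 peaks in WT (SD, n = 2 each), a difference of -63.5 (exact permutation test, two-sided, p = 0.33, the smallest value 2 against 2 allows). Counted by gene, 1 and 1 of the 32 genes had a peak in the KQ libraries, against 23 and 22 in the WT libraries. The difference in means was -21.5 genes (exact permutation test, two-sided, p = 0.33, n = 2 each). Over all protein-coding genes, 8.35% and 6.99% had a peak of KQ library 1 and 2, and 58.9% and 60.7% had a peak of WT library 1 and 2.

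**Figure D1:**
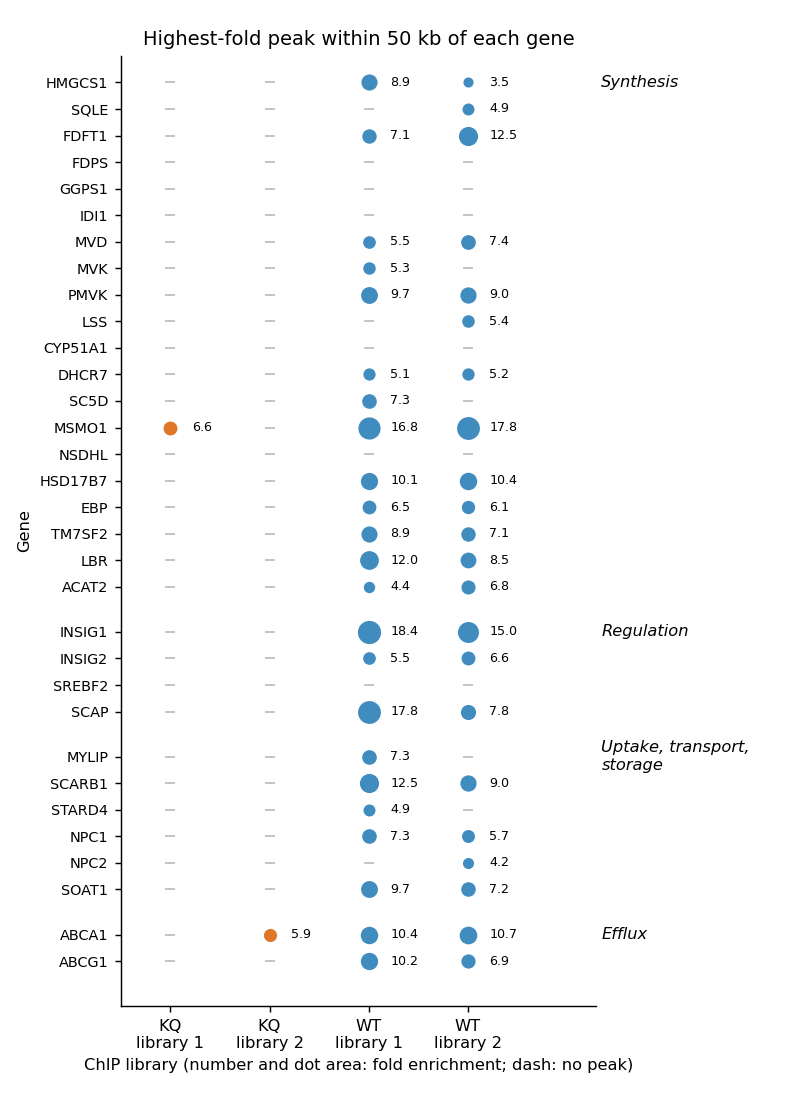
Fold enrichment of the highest peak within 50 kb of each of the 32 genes (rows) in each ChIP library (columns); the number and the dot area give the fold, and a dash means no peak. The KQ columns hold 1 dot each, at MSMO1 (6.6) and ABCA1 (5.9), and the WT columns hold 23 and 22.

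No gene of the 32 had a reproducible KQ peak, and 17 had a reproducible WT peak. The 0 of 32 in KQ allows a share of up to 9.38%, above the 2.68% of all protein-coding genes with a reproducible KQ peak, so an absence relative to other genes was not detectable with 32 genes. The 17 of 32 in WT (53.1%) stood beside 37.7% of all protein-coding genes. With any pooled peak counted, KQ had 5 of 32 genes (15.6%) beside 16.4% of all genes, and WT had 25 of 32 (78.1%) beside 67.1%. The KQ share was close to that of genes at large, and both WT shares were numerically above those of genes at large. The WT shares carry no interval, so whether 32 genes suffice to set them apart from genes at large was not tested. The median gene length was 22.6 kb for the 32 genes and 24.2 kb for all genes, so the windows were of like width.

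List length bears on the KQ and WT counts directly, since the pooled lists held 2846 KQ and 25164 WT peaks, of which 354 and 8033 were reproducible. When the reproducible WT list was shortened by q-value to 354 peaks, 0 of the 32 genes had a reproducible KQ peak, against 2 (6.25%, MSMO1 and INSIG1) with a peak in the shortened WT list, beside 3.25% of all protein-coding genes for that list. In an alternative chosen after seeing the data, 5 genes had a pooled KQ peak, against 9 (28.1%) with a peak when all pooled WT peaks were shortened to 2846, beside 18.2% of all genes for the shortened WT list.

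In the enzymes of cholesterol synthesis, 0 of 20 genes had a reproducible KQ peak and 9 of 20 (45.0%) had a reproducible WT peak. The 9 in WT were FDFT1, MVD, PMVK, MSMO1, HSD17B7, EBP, TM7SF2, LBR and ACAT2, which lie at both the early and the late steps of the pathway. Their 15 reproducible WT peaks had a median fold of 10.2. Of these 15, 0 lay inside the gene itself and 2, both near LBR, had the gene as their nearest protein-coding gene. Most of these peaks were therefore closer to, or inside, another gene.

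The highest of them was near MSMO1, which encodes the oxidase that removes methyl groups from sterol intermediates made from lanosterol. The pooled KQ peak there, chr4:165308237-165308465, had 31 tags over a background of 4.39, a fold of 5.9 and a −log10 q of 11.9. It was present in KQ library 1 (22 tags, fold 6.6) and absent from KQ library 2. The pooled WT peak at chr4:165308195-165308533 had 59 tags over a background of 1.75, a fold of 21.9 and a −log10 q of 62.7, with 38 tags and a fold of 16.8 in library 1 and 25 tags and a fold of 17.8 in library 2. Both summits lay 19.3 kb upstream of MSMO1, inside the neighbouring gene KLHL2. The WT peak ranked 93 of 8033 reproducible WT peaks by fold.

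PMVK, the kinase that phosphorylates mevalonate phosphate, was the other synthesis gene with a KQ peak over a reproducible WT peak. The pooled KQ peak (chr1:154987440-154987608, 28 tags over 7.55, fold 3.4, −log10 q 4.6) was in neither KQ library. The WT peak (chr1:154987332-154987746, 76 tags over 7.91, fold 8.6, −log10 q 42.6) had 60 tags in library 1 and 25 in library 2. It lay 44.9 kb upstream of the PMVK span, inside FLAD1. The other 3 reproducible WT peaks of PMVK lay 28.8 to 31.1 kb upstream inside the adaptor gene SHC1 and overlapped no KQ peak. The highest of them (chr1:154972644-154972967, fold 10.5, −log10 q 28.1) had 29 tags in library 1 (fold 8.8) and 16 in library 2 (fold 9.0), and the other 2 each had a fold of 6.4.

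At the remaining early-pathway genes the reproducible WT peaks were single and lay outside the gene. FDFT1, the squalene synthase, had its peak (chr8:11791157-11791443) 4.3 kb outside the span, nearest to the DNA repair gene NEIL2. It had a fold of 10.4 and a −log10 q of 23.8, with 20 tags in library 1 (fold 5.4) and 18 in library 2 (fold 12.5). MVD, which makes isopentenyl diphosphate, had a peak 16.2 kb upstream (chr16:88679228-88679432), inside SNAI3. Its fold was 8.7 and its −log10 q 12.6, with 11 tags in library 1 (fold 5.5) and 8 in library 2 (fold 7.4). ACAT2, the thiolase that starts the pathway, had a peak 10.7 kb outside its span (chr6:159789660-159789856), on the promoters of MRPL18 and TCP1. Its fold was 5.7 and its −log10 q 14.3, with 27 tags in library 1 (fold 4.1) and 11 in library 2 (fold 6.8). No KQ peak lay within 50 kb of any of these 3 genes.

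Among the late sterol enzymes, HSD17B7, a keto-sterol reductase, had a pair of reproducible WT peaks 37.1 and 43.7 kb downstream near CCDC190, with folds of 11.4 and 11.3. The first (chr1:162849749-162849993, −log10 q 25.1) had 21 tags in library 1 (fold 10.1) and 12 in library 2 (fold 7.8). EBP, the sterol isomerase, had a WT peak 5.3 kb upstream (chrX:48516440-48516775) inside PORCN, with a fold of 10.5 and a −log10 q of 17.4. It rested on 22 tags, with 17 in library 1 (fold 6.5) and 6 in library 2 (fold 6.1). Neither gene had a KQ peak. TM7SF2, a sterol reductase, had a reproducible WT peak 10.7 kb upstream inside VPS51 (chr11:65101085-65101451, fold 10.2, −log10 q 20.0). It had 19 tags in library 1 (fold 8.9) and 10 in library 2 (fold 7.1), and no KQ peak overlapped it. The KQ peak near TM7SF2 (chr11:65096035-65096198, 25 tags over 6.18, fold 3.6) lay on the promoter of VPS51, 15.8 kb upstream of TM7SF2, and was in neither KQ library. A WT peak that was not reproducible (fold 5.7, 16 tags) overlapped it. LBR, a further sterol reductase, had its highest WT peak 45.2 kb downstream inside the dynein gene DNAH14 (chr1:225356017-225356534, fold 12.3, −log10 q 37.4), with 34 tags in library 1 and 19 in library 2. Another lay 16.3 kb upstream (fold 7.8, 65 tags), and the other was at its start.

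The other 11 synthesis genes had no reproducible peak in either group. HMGCS1, FDPS, MVK, LSS, DHCR7 and SC5D had pooled WT peaks that did not recur in both libraries, with highest folds between 3.5 (MVK) and 7.1 (HMGCS1). HMGCS1 and DHCR7 each had peaks in both WT libraries, but no pooled peak near them overlapped a peak of both. SQLE, the squalene epoxidase, had a peak in WT library 2 alone (fold 4.9). GGPS1, IDI1, CYP51A1 and NSDHL had no peak in any of the 6 lists.

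The reproducible WT peaks with a summit at a member's own start site were those of SCAP and LBR, 2 of the 27 members for which RefSeq start sites were listed. The share of all protein-coding genes with such a peak is not given here, so the count has no scale. ABCG1, which had no listed start, had a reproducible WT peak 78 bp outside the lower end of its span. SCAP escorts SREBP2 from the endoplasmic reticulum to the Golgi, where it is cleaved. Besides its reductase activity, LBR anchors heterochromatin to the inner nuclear membrane. The SCAP peak (chr3:47475864-47476087) had a fold of 16.5 and a −log10 q of 43.6 from 47 tags over 1.91, with 36 tags (fold 17.8) in library 1 and 12 tags (fold 7.8) in library 2. Its summit lay 44 bp before a listed start. The LBR start-site peak (chr1:225428730-225428951) had a fold of 6.4 and a −log10 q of 20.5 from 46 tags over 6.32, with 36 tags (fold 5.4) and 13 tags (fold 6.0) in the libraries, and its summit lay 40 bp before the start. No KQ peak lay within 50 kb of SCAP or LBR. The 250 bases before each of these starts are shown because a reproducible WT peak lay there. They were taken from RefSeq for GRCh38.p14, the assembly of hg38, on the minus strand at chr3:47475942-47476191 and chr1:225428822-225429071. Each reads 5′ to 3′ up to the start, and the 21 capitals mark the WT summit with 10 bases on either side.
SCAP: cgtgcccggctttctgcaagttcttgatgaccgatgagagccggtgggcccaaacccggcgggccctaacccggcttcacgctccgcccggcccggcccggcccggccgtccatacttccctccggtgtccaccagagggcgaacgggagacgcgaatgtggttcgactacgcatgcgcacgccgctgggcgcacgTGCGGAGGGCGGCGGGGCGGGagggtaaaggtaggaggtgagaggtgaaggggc
LBR: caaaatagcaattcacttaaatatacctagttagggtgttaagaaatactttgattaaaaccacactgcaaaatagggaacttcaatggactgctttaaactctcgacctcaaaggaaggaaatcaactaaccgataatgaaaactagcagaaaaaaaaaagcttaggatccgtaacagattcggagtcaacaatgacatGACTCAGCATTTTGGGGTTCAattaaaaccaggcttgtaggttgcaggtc

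The SCAP sequence was 70.0% G and C and the LBR sequence 36.8%. Neither held the nuclear receptor core motif AGGTCA on either strand. The LBR sequence held TGACTCA, the site bound by AP-1 factors, starting 51 bases before the start site and so reaching into the capitals. The search for this motif was added after seeing the data. Across all protein-coding genes with a listed promoter, 4.59% held it in the same window.

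The remaining promoters under peaks near synthesis and regulatory genes belonged to neighbours, and 3 of them, chosen after their values were seen, are shown to set beside those of SCAP and LBR. The first is that of LOC105375587, a non-coding gene upstream of INSIG1 (minus strand, chr7:155252435-155252684, WT summit 132 bases before the start). The second is that of MRPL18, a mitochondrial ribosomal protein gene beside ACAT2 (plus strand, chr6:159789562-159789811, WT summit 21 bases before the start). The third is that of VPS51, a vesicle tethering gene beside TM7SF2 (plus strand, chr11:65095964-65096213), where the capitals mark the KQ summit 96 bases before the start and the WT summit lay 58 bases before it. In the others the 21 capitals are centred on the WT summit. All are from RefSeq (GRCh38.p14), 5′ to 3′.
LOC105375587: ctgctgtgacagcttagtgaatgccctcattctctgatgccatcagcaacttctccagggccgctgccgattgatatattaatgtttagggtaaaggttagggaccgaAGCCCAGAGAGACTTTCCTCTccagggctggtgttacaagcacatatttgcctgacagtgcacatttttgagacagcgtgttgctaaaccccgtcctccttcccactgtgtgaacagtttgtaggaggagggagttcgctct
MRPL18: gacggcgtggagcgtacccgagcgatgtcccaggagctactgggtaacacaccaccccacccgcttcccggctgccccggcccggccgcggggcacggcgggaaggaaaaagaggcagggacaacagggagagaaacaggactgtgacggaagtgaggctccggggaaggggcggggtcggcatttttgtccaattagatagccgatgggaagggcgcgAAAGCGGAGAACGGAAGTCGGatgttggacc
VPS51: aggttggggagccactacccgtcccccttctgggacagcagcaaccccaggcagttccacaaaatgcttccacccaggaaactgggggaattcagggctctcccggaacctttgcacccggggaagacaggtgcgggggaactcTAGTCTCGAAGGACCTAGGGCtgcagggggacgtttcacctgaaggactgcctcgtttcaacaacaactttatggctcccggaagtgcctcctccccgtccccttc

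None of these 3 sequences held AGGTCA or TGACTCA. The MRPL18 promoter held CCAAT, the box bound by the factor NF-Y, 60 bases before the start. Their content of G and C was 50.0% at LOC105375587, 64.4% at MRPL18 and 60.0% at VPS51. Among the neighbour promoters not shown, those of SOD2 and WTAP overlap each other and held the same single AGGTCA. They lay under a WT peak near ACAT2 that was not reproducible. An SHC1 promoter under a WT peak near PMVK, also not reproducible, held TGACTCA. The rest of those not shown near synthesis and regulatory genes held neither motif.

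The regulators of SREBP2 had 0 KQ peaks in any list and, of the 4 roles, the highest median fold in WT, 15.8 over 6 reproducible peaks. INSIG1 and INSIG2 encode membrane proteins that hold SCAP in the endoplasmic reticulum when sterol is plentiful, and INSIG1 is a known PPARγ target in fat cells. INSIG1 had 4 reproducible WT peaks, all upstream. Their folds were 15.4 at 45.3 kb, 16.5 at 40.2 kb, 10.5 at 33.5 kb and 16.3 at 27.5 kb. The peak at chr7:155257484-155257841 had a −log10 q of 54.1 and rested on 61 tags, with 39 in library 1 (fold 18.4) and 25 in library 2 (fold 12.3). The peak at chr7:155270161-155270557 rested on 54 tags, with 36 (fold 17.1) and 24 (fold 15.0). INSIG1 was the nearest protein-coding gene to all 4. INSIG2 had 1 weak reproducible WT peak 2.0 kb downstream (chr2:118112881-118113165, fold 5.0, −log10 q 4.3) on 10 tags, with 9 in library 1 (fold 5.5) and 5 in library 2 (fold 4.1). SREBF2, which encodes SREBP2, had no peak in any of the 6 lists.

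Of the 6 genes of uptake, transport and storage, 0 had a reproducible KQ peak and 3 had a reproducible WT peak. SCARB1 encodes the receptor that takes cholesterol from high-density lipoprotein. Its KQ peaks were chr12:124747466-124747727 (16 tags over 3.43, fold 3.8), 29.3 kb outside the gene, and chr12:124838333-124838537 (20 tags over 3.94, fold 4.3), inside it. Both were pooled peaks absent from each KQ library. The first overlapped no pooled WT peak, and was alone in this among the 8 KQ peaks at the 32 genes, although WT library 2 had a peak there with a fold of 5.4. The second overlapped a reproducible WT peak (chr12:124838390-124838731, fold 5.6) of 29 tags, with 22 in library 1 and 10 in library 2. The strongest WT peak of SCARB1 (chr12:124774168-124774407, fold 13.3, −log10 q 28.9) lay 2.6 kb outside the span and overlapped no KQ peak. It had 26 tags in library 1 (fold 12.5) and 11 in library 2 (fold 8.2).

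The lysosomal exporter NPC1 had a reproducible WT peak inside the gene, 14.3 kb from its start (chr18:23572127-23572292, fold 7.4, −log10 q 10.2). It had 13 tags in library 1 (fold 7.3) and 7 in library 2 (fold 5.5). SOAT1, which esterifies cholesterol for storage, had reproducible WT peaks 21.3 and 4.6 kb upstream, each with a fold of 9.4. The first (chr1:179272335-179272591, −log10 q 18.3) had 20 tags in library 1 (fold 9.7) and 9 in library 2 (fold 6.2). A WT peak at the SOAT1 start itself (fold 4.7) was in library 1 only. MYLIP, the ubiquitin ligase that lowers lipoprotein receptor levels and is a target of LXR, had WT peaks near its start and 2.0 kb inside (folds 4.4 and 7.0), both in library 1 only. STARD4, a cytosolic sterol carrier, had a WT peak 0.6 kb upstream (fold 5.0) in library 1 only. NPC2, the partner of NPC1, had a peak in WT library 2 alone (fold 4.2). None of these 5 genes had a KQ peak.

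Neither efflux pump had a reproducible KQ peak, and both had reproducible WT peaks, 6 at ABCA1 and 3 at ABCG1. ABCA1 loads cholesterol onto lipid-poor apolipoprotein and ABCG1 onto formed high-density lipoprotein. The 3 KQ peaks of ABCA1 had folds of 4.7, 2.9 and 3.4 from 20, 20 and 26 tags. They lay inside the span at chr9:104781094-104781287, 25.9 kb upstream at chr9:104953958-104954133, and 40.7 kb upstream at chr9:104968779-104968957. The first was at the far end of ABCA1, 146.9 kb from its start, and also inside the neighbouring gene NIPSNAP3B. The second was in KQ library 2 (14 tags over 1.54, fold 5.9), and none was in KQ library 1. All 3 overlapped pooled WT peaks, but none of those WT peaks was reproducible.

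The highest WT peaks of ABCA1 were upstream of the gene. The peak at chr9:104960699-104960911, 32.7 kb upstream, had a fold of 11.4 and a −log10 q of 22.7. It had 18 tags in library 1 (fold 6.9) and 14 in library 2 (fold 10.7). The peak at chr9:104961905-104962146, 33.9 kb upstream, had a fold of 10.9 from 35 tags. The other 4 reproducible WT peaks lay inside ABCA1, with folds of 10.1, 7.1, 8.4 and 6.5. At ABCG1, the highest reproducible WT peak (chr21:42199550-42199732, fold 10.1, −log10 q 18.2) lay 0.1 kb outside the lower end of the span, and the other 2 lay inside with folds of 3.9 and 7.1. The first had 17 tags in library 1 (fold 6.5) and 9 in library 2 (fold 6.9). A WT peak of fold 10.6, 4.1 kb outside the lower end, was in library 1 only. ABCG1 had no KQ peak.

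**Figure D2:**
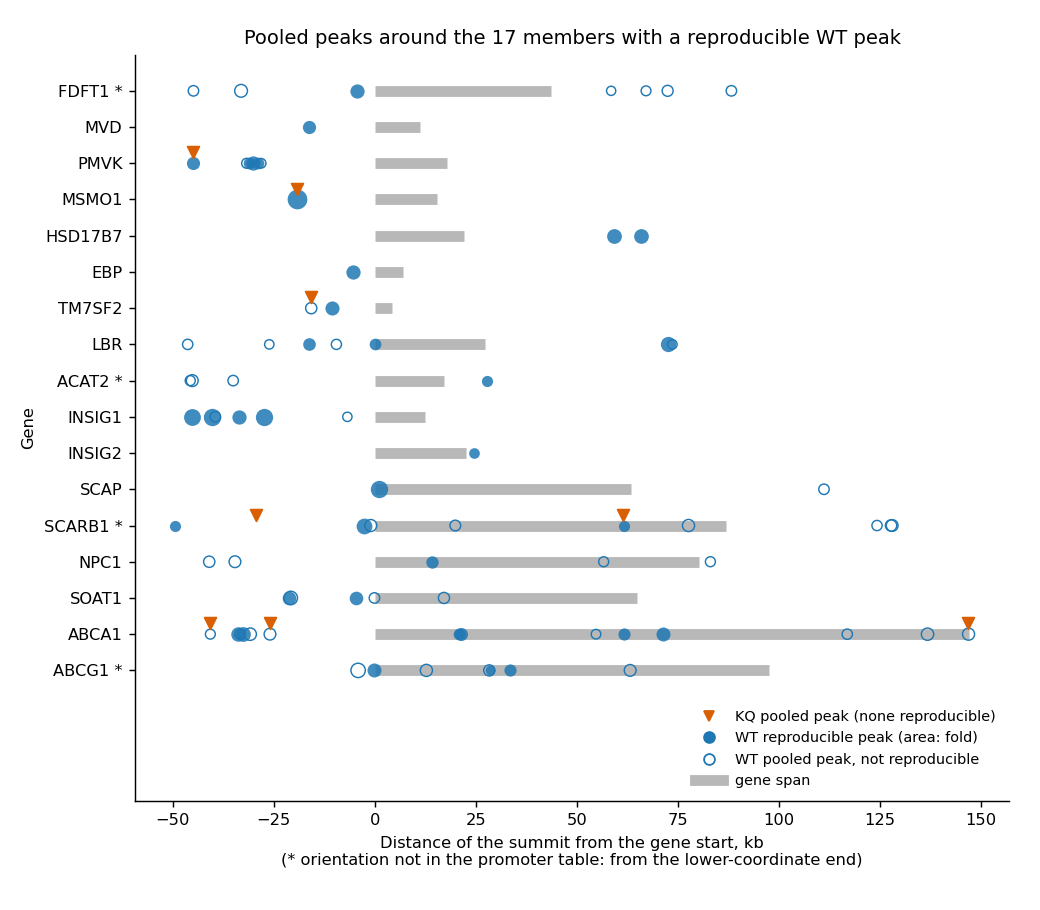
Summit positions of pooled peaks around the 17 genes with a reproducible WT peak, in kb from the gene start (grey bar, gene span; genes with an asterisk run from the lower-coordinate end). Triangles are KQ peaks, filled circles reproducible WT peaks with area by fold, and open circles other WT peaks; the 8 KQ peaks fall at 5 genes, and the INSIG1 peaks all lie upstream.

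The roles differed in where the WT peaks lay. The nearest protein-coding gene was the member itself for 6 of 6 peaks of the regulators, 6 of 6 of the uptake genes, 9 of 9 of the efflux pumps and 2 of 15 of the synthesis genes. These peaks came from 3, 3, 2 and 9 genes, with 4 of the 6 regulator peaks at INSIG1, and peaks of 1 gene are not independent. The same share over the peaks of all genes is not given here. When a peak was given to its nearest gene only, 0 of the 32 genes had a reproducible KQ peak, beside 1.25% of all protein-coding genes. By that rule 9 of the 32 genes had a reproducible WT peak, 1 of 20 in synthesis (LBR) and 8 of the other 12, beside 20.2% of all protein-coding genes. Reproducible WT peaks inside the span were found in 5 of 32 genes (SCAP, SCARB1, NPC1, ABCA1 and ABCG1), 0 of them synthesis genes, beside 13.7% of all genes. Gene length moved with this order: the median length was 21.2 kb in synthesis, 43.0 kb in regulation, 49.8 kb in uptake and 122 kb in efflux, and its part in the result was not tested.

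Per Mb of window, reproducible WT peaks numbered 6.17 in synthesis, 10.5 in regulation, 6.69 in uptake and 20.2 in efflux. The density was 8.28 per Mb over the windows of all 32 genes and 3.31 per Mb over the windows of all protein-coding genes. Overlapping windows were counted once, so the second value is not an average per gene. The same pair was 13.6 beside 6.44 per Mb without WT library 2, and 21.2 beside 10.3 per Mb with all pooled peaks. A density above 3.31 per Mb was not particular to the 32 genes. It was 5.73 in the further sterol genes described below, 7.96 in fatty acid synthesis and 13.7 in the fatty acid oxidation list. The median fold of the 36 reproducible WT peaks was 9.76, beside 9.03 for all 8033 reproducible WT peaks, and their median tag number was 31 beside 30. Peak strength at these genes was close to that of the list as a whole. The difference between roles was not tested, because the groups hold between 2 and 20 genes and peaks of 1 gene are not independent.

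**Figure D3:**
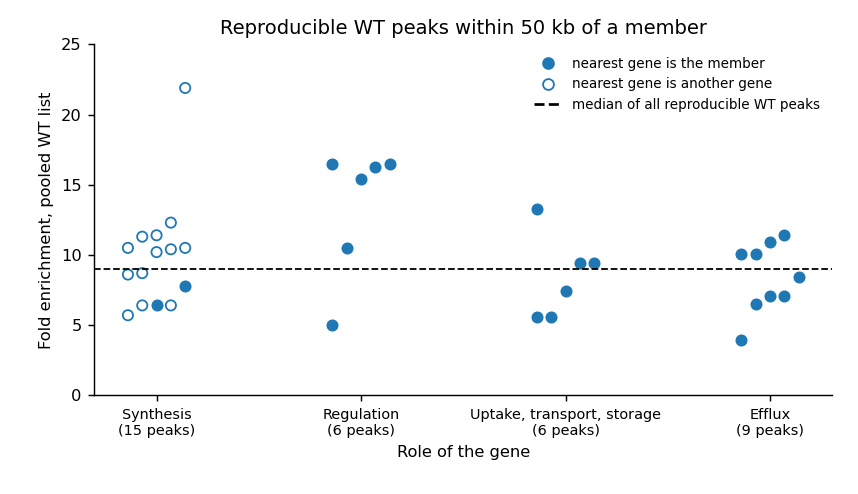
Fold enrichment in the pooled WT list of the 36 reproducible WT peaks, by role of the gene; filled circles are peaks whose nearest protein-coding gene is the member, and the dashed line is the median of all reproducible WT peaks (9.03). In synthesis 13 of 15 circles are open, and in the other roles all are filled.

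The KQ peaks at these genes had a lower median fold than their list. The 8 pooled KQ peaks had a median fold of 3.7, beside 4.82 for all pooled KQ peaks. Of the 8, 6 were in neither KQ library, a state shared by 45.5% of all pooled KQ peaks, and 7 overlapped a pooled WT peak, as did 80.4% of all pooled KQ peaks. In the other direction, 3 of the 36 reproducible WT peaks (8.33%, exact 95% interval 1.75 to 22.5, counting error only) overlapped a pooled KQ peak, namely those of PMVK, MSMO1 and SCARB1. Over all reproducible WT peaks this share was 20.1%, which lies inside the interval.

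A wider window brought in KQ peaks that recurred in both libraries. Within 100 kb, ABCA1 had a reproducible KQ peak 63.7 kb outside its span (chr9:104991565-104992044, fold 5.8, 33 tags), and ABCA1 was the nearest gene to it. ACAT2 had a reproducible KQ peak 60.3 kb outside (chr6:159701615-159701922, fold 4.7, 33 tags), nearest to SOD2.

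Counts for other lipid genes are set beside these as descriptions only. Their lists were picked with earlier results of these data known, so they are no baseline. Of 24 further sterol genes (receptors, lipoprotein receptors, oxysterol and bile acid enzymes), 1 (4.17%) had a reproducible KQ peak and 12 (50%) a reproducible WT peak. The shares of all protein-coding genes were 2.68% in KQ and 37.7% in WT. The sterol gene with a reproducible KQ peak was LIPA, the lysosomal lipase that frees cholesterol from its esters. Its KQ peak inside the gene (chr10:89269814-89270145) had a fold of 6.6 from 33 tags, with 21 in library 1 and 14 in library 2, and the WT peak (chr10:89269888-89270132) had a fold of 18.7 from 62 tags, with 47 and 17.

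Of 12 genes of fatty acid synthesis, 0 had a reproducible KQ peak and 10 (83.3%) a reproducible WT peak. In a list of 12 genes for fatty acid oxidation, 7 (58.3%) had a reproducible KQ peak (CPT1A, CPT1B, ACADVL, HADHA, HADHB, ECH1 and PDK4). All 12 (100%) had a reproducible WT peak. PDK4, in this list, encodes a pyruvate dehydrogenase kinase and not an oxidation enzyme. The shares of all protein-coding genes were again 2.68% in KQ and 37.7% in WT. At CPT1A, which admits fatty acids to mitochondria and is a known PPAR target, the KQ peak had folds of 6.9 and 6.9 in the libraries and the WT peak 29.1 and 17.9. At HADHA and HADHB, which encode the subunits of the mitochondrial trifunctional protein and share their highest peak (counted for both), that peak had KQ folds of 12.7 and 18.5 and WT folds of 14.4 and 11.3. These lists were chosen with earlier results of these data known, and the differences between lists were not tested. Median gene length was 26.7 kb in the further sterol genes, 58.3 kb in fatty acid synthesis and 38.3 kb in the oxidation list. It was 22.6 kb for the 32 genes, so the windows were narrower there, and the part of this in the counts was not tested.

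**Figure D4:**
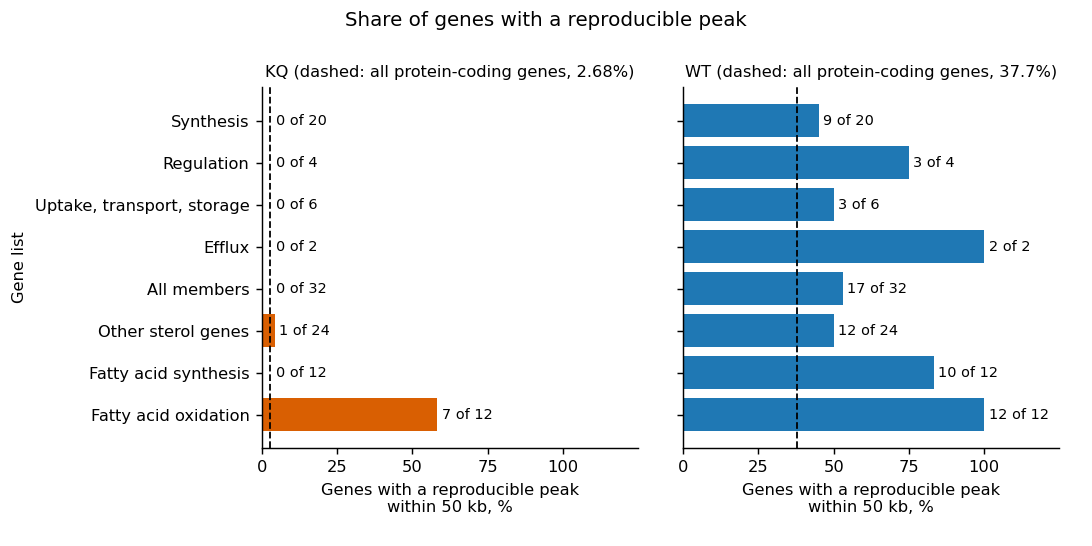
Percent of genes in each list with a reproducible peak within 50 kb, KQ on the left and WT on the right; numbers are genes with a peak of genes in the list, and the dashed line is the percent of all protein-coding genes. Cholesterol genes stand at 0 of 32 in KQ and 17 of 32 in WT, and the fatty acid oxidation list, which includes PDK4, at 7 of 12 and 12 of 12. The lists were chosen with earlier results of these data known.

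The promoters of the cholesterol genes were searched for letters that PPARγ and its partners bind, in the 250 bases before a start and on both strands. Promoters of 27 of the 32 genes were in the RefSeq table. The core motif AGGTCA was in 1 of 27 (DHCR7, 3.7%), beside 13.6% of all protein-coding genes. DR1, the direct repeat of that motif to which PPARγ and RXR bind together, was in 0 of 27, beside 0.019% of all genes. A version with 1 free base in each repeat, added after seeing the data, was in 0 of 27, beside 0.31%. Motifs this rare would seldom be met in 27 promoters, so these 0 counts cannot set the genes apart from genes at large. TCACNCCAC, a form of the sterol element bound by SREBP2, was in 1 of 27 (SREBF2), beside 1.19%. CCAAT, bound by NF-Y, a known partner of SREBP2 at sterol genes, was in 20 of 27 (74.1%), beside 40.2%; the count was 14 of 17 in synthesis and 6 of 10 in the other roles. A match describes these letters only, and peak sequences beyond the promoters were not used here.

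**Figure D5:**
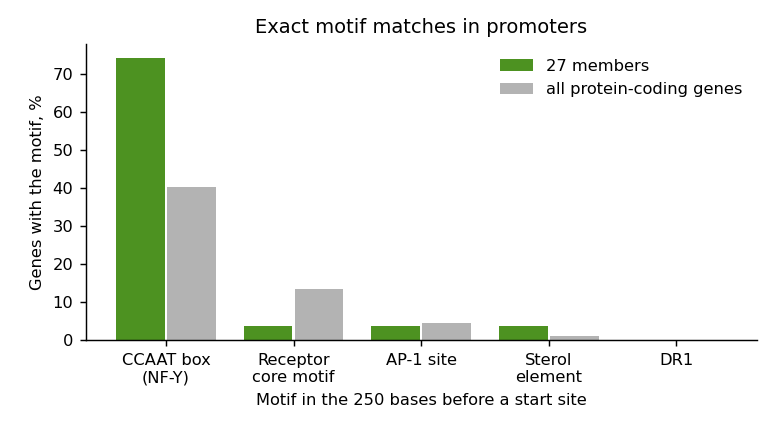
Percent of genes with an exact match on either strand in the 250 bases before a listed start, for the 27 cholesterol genes with a promoter (green) and all protein-coding genes (grey). CCAAT stands at 74.1% beside 40.2%, AGGTCA at 3.7% beside 13.6%, and DR1 at 0% and 0.019%.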

How the data were processed

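ChIP-seq peak lists of 4 libraries and of the pooled libraries of each group were used, 6 lists in all. Per the submitters' processing notes, reads were handled with Bowtie2 (version 2), MACS2, bedtools, deepTools and HOMER on hg38. Caller settings, and whether input served as a control, were not given in the sources used here. Each list is as deposited. The deposited lists give, as the authors' values, a fold enrichment (a ratio to the caller's background), −log10 of the p-value and q-value, and the summit's offset from the peak start. Fold and q only described, ranked and filtered peaks within a list. Tags at the summit and the background were recovered by solving the authors' fold, with a pseudocount of 1, and Poisson p together, to within 0.001 in −log10 p.

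Gene spans and promoters came from RefSeq GRCh38.p14. The tables used here do not tell exons, introns and untranslated regions apart. Summits within 50 kb of a span were assigned to the gene, and a peak could serve several genes, although none was shared by 2 members. All members were accounted for, with full values for the highest reproducible peak of each gene that had one. Libraries were compared with an exact permutation test. The share of WT peaks overlapping KQ carries an exact (Clopper-Pearson) 95% interval, and the 0 of 32 genes in KQ allows 3 counts. Both cover counting error only. Shares of genes are given beside the share of all genes, without an interval. Alternatives were other windows (10 and 100 kb), nearest-gene assignment, −log10 q of at least 3, a 50% overlap, all pooled peaks, a shortened WT list, each library left out and a replicate block. The members and lists were chosen with earlier results of these data known. Scripts were tested on simulated data. Tools were Python 3.11.15, numpy 2.4.6, scipy 1.17.1, pandas 2.3.3 and matplotlib 3.10.9.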

Additional observations from a re-analysis of the deposited data

How the results depend on the processing

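The differences per library (KQ minus WT) kept their direction under every alternative run for them, and the exact p stayed at its floor. With 1 library left out they were -22 to -21 genes and -66 to -61 peaks. Their size moved with the rule for assigning peaks. They were -14 genes and -29.5 peaks with a 10 kb window, and -21 genes and -90.5 peaks with a 100 kb window. By nearest gene they were -11.5 genes and -38.5 peaks, and with −log10 q of at least 3 they were -20.5 genes and -58.5 peaks. The reproducible KQ count of 0 of 32 genes became 2 with a 100 kb window, 5 with all pooled peaks and 1 when only a single KQ library had to hold the peak (1 to 1). The WT count of 17 became 10 with a 10 kb window, 9 by nearest gene, 2 with the WT list shortened to the KQ length, and 9 with all pooled WT peaks shortened likewise (chosen after seeing the data). It was 19 to 22 without one WT library. The share of reproducible WT peaks overlapping KQ, 8.33%, was 50% (1 of 2) with the shortened list and 0 to 8.47% without one library, reaching 0 without KQ library 1. The density of 8.28 per Mb became 21.2 with all pooled peaks and 11.7 to 13.6 without one WT library, and nearest-gene assignment gives no density. By construction the alternatives count different sets of peaks for the genes, and the cause of the changes was not tested. With a replicate block the differences stayed at -21.5 and -63.5 (exact permutation test, p = 0.5, the smallest possible). The deviations of same-numbered libraries had a correlation of -0.01 over 14428 genes, given as a description. Only 8.35% and 6.99% of all protein-coding genes had a peak of KQ library 1 and 2. The correlation therefore cannot tell whether the numbers pair the libraries. The median background tags under called peaks were higher in the KQ lists than in the WT lists, and whether sequencing depth differed was not tested.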
